A study of Mus musculus with 24 samples.

Results

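The genes described here encode the muscle acetylcholine receptor and the proteins that gather it under the motor nerve ending. They were chosen by symbol, as Chrna1, Chrnb1, Chrnd, Chrne, Chrng, Musk, Rapsn, Dok7, Lrp4 and Colq, and all 10 were found among the 55401 genes of the count data. The counts came from poly-A RNA of the gastrocnemius, a mixed calf muscle, of male C57BL6 mice taken 24 h after a scald burn or sham treatment. At the burn, the young animals were 5 weeks and the adult animals 11 weeks of age. Young burn and adult burn mice had a scald over 25% of the body surface with fluid resuscitation. Young sham and adult sham mice had the same anaesthetic and analgesic, without scald or fluid, so that burn and resuscitation cannot be told apart. Each group held 3 mice with 1 library per mouse. The muscle lay away from the burned skin and was sampled at this time only.

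The receptor is a channel of 5 subunits that opens when acetylcholine is released by the motor neuron. Fetal and denervated muscle builds it with the gamma subunit (Chrng), and the epsilon subunit (Chrne) takes its place in innervated adult muscle, beside the alpha, beta and delta subunits (Chrna1, Chrnb1 and Chrnd). Agrin from the nerve binds Lrp4, which activates the receptor kinase Musk together with its adaptor Dok7, and rapsyn (Rapsn) then anchors the receptors in clusters. Colq is the collagen tail that holds acetylcholinesterase in the cleft. In innervated fibres these genes are read mainly by the few nuclei below the synapse, and loss of nerve activity is known to switch many of them on along the whole fibre.

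Upstream sequences are shown for Chrna1 and Musk, as examples of members that differed with age in opposite directions, and for the adult and fetal subunits Chrne and Chrng. Each stretch runs from 180 to 31 bases before the RefSeq transcription start on GRCm38.p6 and is written on the strand of the gene. Capitals mark E-boxes, the sites of myogenic factors such as MyoD and myogenin (letters CANNTG, which read the same motif on both strands), and the N-box, the site of the ETS factor GABP (CCGGAA, or TTCCGG on the other strand). The stretches lie at chr2:73580369-73580518 on the minus strand (Chrna1), chr4:58285782-58285931 on the plus strand (Musk), chr11:70619225-70619374 on the minus strand (Chrne) and chr1:87205631-87205780 on the plus strand (Chrng). No annotated exon lies in any of them, and that of Chrng is intronic in a longer transcript of the same gene.
Chrna1: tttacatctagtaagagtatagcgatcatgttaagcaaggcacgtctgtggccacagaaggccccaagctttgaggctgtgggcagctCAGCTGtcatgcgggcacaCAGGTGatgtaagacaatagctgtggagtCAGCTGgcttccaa
Musk: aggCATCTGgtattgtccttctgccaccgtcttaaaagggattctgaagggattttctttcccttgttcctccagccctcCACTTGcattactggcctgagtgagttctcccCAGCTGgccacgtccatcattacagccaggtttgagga
Chrne: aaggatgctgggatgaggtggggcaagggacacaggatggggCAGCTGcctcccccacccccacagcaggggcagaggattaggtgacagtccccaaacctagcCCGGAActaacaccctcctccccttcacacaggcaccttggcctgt
Chrng: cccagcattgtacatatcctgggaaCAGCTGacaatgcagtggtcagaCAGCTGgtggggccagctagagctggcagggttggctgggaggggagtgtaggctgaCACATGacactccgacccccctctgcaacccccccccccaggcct
Chrna1, Musk and Chrng held 3 E-boxes each, and Chrne held 1 E-box and 1 N-box. Of the stretches not printed, that of Chrnb1, which also differed with age and overlaps an exon of Fgf11, held 2 E-boxes, and those of the 2 starts of Dok7 held 1 and 0. Among the same stretches of all 32851 RefSeq starts, 3.9% held at least 3 E-boxes, 48.4% at least 1, and 7.5% an N-box. A match of letters is a description of the window and not a measured site.

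Members of the group were called with age, and none with burn. In the fit of 11 libraries, 11.8% of all 12651 genes were called with age in sham and 20.7% in burn. With burn, only 0.909% of all genes were called in adult mice and 0.664% in young mice. In the 11 libraries without young burn replicate 2, Musk was lower and Chrna1 and Chrnb1 were higher in young mice than in adult mice, in sham and in burn alike, and the Musk difference between the sham groups was the largest among the 8 members tested, over all comparisons. Mean levels of Chrne were lowest in the burn groups, and every young burn library lay above every young sham library for Musk, but neither difference passed the adjusted threshold. Chrng stayed at or near 0 counts in all groups.

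Levels are normalized CPM, counts scaled by TMM factors to a common library size. Total counts ran from 4392605 to 5688512 per library. Differences are log2 fold changes with the standard error (SE) of edgeR's quasi-likelihood model, fitted across all genes, and called means an adjusted p under 0.05 (Benjamini-Hochberg, over all genes tested). Of the 10 members, 8 passed the filter on low counts, and Chrnd and Chrng did not. Young burn replicate 2 was left out of the main values and is given beside them. It stood far from its group in several members and had 307 CPM of the stress-induced Gadd45a against 20.3 to 61.6 CPM in the other 11 libraries. In whole muscle, fewer synaptic nuclei and less RNA per nucleus cannot be told apart. The plot of levels by library gives all 10 genes.

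**Figure D1:**
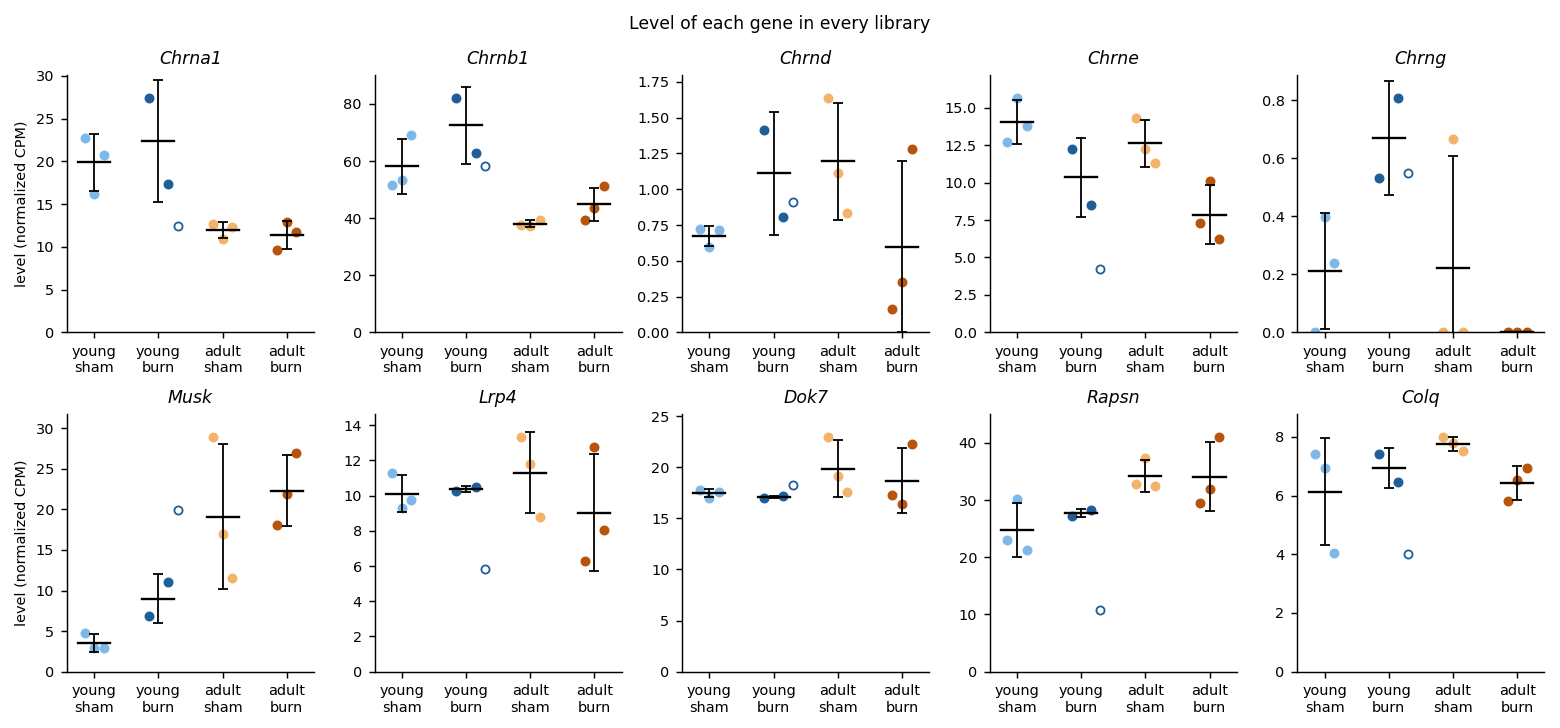
Level of each of the 10 genes in normalized CPM (vertical axes, scales differ between panels) in the 4 groups. Filled points are libraries, lines the mean and bars the SD (n = 3, or n = 2 for young burn), cut off at 0 where they would reach below it, and the open point is young burn replicate 2, which is in neither. Musk lies at 2.86 to 4.80 CPM in young sham and at 11.5 to 28.9 CPM in adult sham, and Chrna1 and Chrnb1 show the opposite order of ages.

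Among the receptor subunits, Chrna1 (ENSMUSG00000027107.3, chr2:73563215-73580338, minus strand) encodes the alpha subunit that binds acetylcholine. It had 22.8, 16.2 and 20.7 CPM in the young sham libraries and 12.7, 10.9 and 12.3 CPM in the adult sham libraries. Young burn replicates 1 and 3 had 27.4 and 17.4 CPM, replicate 2 had 12.4 CPM, and adult burn had 9.62, 12.9 and 11.7 CPM. Young and adult libraries did not overlap in sham, nor in burn unless replicate 2 was counted. Young sham averaged 19.9 ± 3.34 CPM (SD, n = 3) against 11.98 ± 0.941 CPM (SD, n = 3) for adult sham, a log2 fold change of 0.72 (SE 0.20, adjusted p = 0.0275). Between young burn and adult burn it was 0.98 (SE 0.21, adjusted p = 0.00477). The sham difference did not pass with all 12 libraries (adjusted p = 0.126), nor without young sham replicate 1 (0.0727), young sham replicate 3 (0.0905), adult sham replicate 1 (0.0597), adult sham replicate 2 (0.0916) or adult sham replicate 3 (0.0559), and the burn difference did not pass with all 12 (adjusted p = 0.0748) or without young burn replicate 1 (0.128).

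Chrnb1 (ENSMUSG00000041189.9, chr11:69784036-69795943, minus strand) encodes the beta subunit, through which rapsyn holds the receptor. Its levels were 51.8, 53.3 and 69.3 CPM in young sham and 37.7, 37.2 and 39.5 CPM in adult sham. In burn they were 82.1 and 62.8 CPM in young replicates 1 and 3, 58.4 CPM in replicate 2, and 39.5, 43.7 and 51.2 CPM in adult mice. Every young library, replicate 2 included, lay above every adult library of the same treatment. The log2 fold change was 0.61 (SE 0.14, adjusted p = 0.0136) in sham and 0.70 (SE 0.15, adjusted p = 0.00533) in burn. With all 12 libraries it was 0.62 (adjusted p = 0.0523) in sham and 0.59 (adjusted p = 0.0319) in burn. Without young sham replicate 3 the sham value was 0.47 (adjusted p = 0.0696), and without young burn replicate 1 the burn value was 0.49 (adjusted p = 0.11).

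Chrnd (ENSMUSG00000026251.13, chr1:87190607-87200070, plus strand) encodes the delta subunit and lies next to Chrng on the same strand. It had 3 counts in each young sham library, 8, 5 and 4 in young burn, 8, 5 and 4 in adult sham, and 1, 2 and 7 in adult burn, in order of replicate. These ranges overlapped and were too low for the test.

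Chrne (ENSMUSG00000014609.16, chr11:70614883-70619216, minus strand), the adult subunit, had 12.7, 15.65 and 13.8 CPM in young sham and 14.3, 12.25 and 11.3 CPM in adult sham. It had 12.2 and 8.49 CPM in young burn replicates 1 and 3, 4.2 CPM in replicate 2, and 7.30, 10.1 and 6.22 CPM in adult burn. The sham groups overlapped, whereas every burn library was below every sham library of the same age. The log2 fold change for burn was -0.68 (SE 0.21, unadjusted p = 0.00492, adjusted p = 0.145) in adult mice and -0.44 (SE 0.22, adjusted p = 0.357) in young mice. With all 12 libraries the young value was -0.78 (SE 0.30, adjusted p = 0.179), so the difference was not called in either age. The gene overlaps 4930544D05Rik on the other strand, which shares no exon base with it and had at most 12 counts.

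The kinase Musk (ENSMUSG00000057280.15, chr4:58285960-58374303, plus strand) had 4.80, 2.97 and 2.86 CPM in young sham and 28.9, 16.9 and 11.5 CPM in adult sham. Young burn replicates 1 and 3 had 6.9 and 11.1 CPM, replicate 2 had 19.9 CPM, and adult burn had 18.1, 21.9 and 26.9 CPM. The sham groups stood apart, the lowest adult library lying above the highest young one, and so did the burn groups unless replicate 2 was counted. In sham the young level was 0.184 times the adult level, a log2 fold change of -2.44 (SE 0.36, adjusted p = 0.000907), and with all 12 libraries it was -2.43 (SE 0.44, adjusted p = 0.0108). This was called under each of the 18 alternatives that were run. In burn it was -1.32 (SE 0.33, adjusted p = 0.0124) and was not called with all 12 libraries (-0.83, adjusted p = 0.143) or without young burn replicate 1 (highest adjusted p = 0.143).

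After burn in young mice, the 3 libraries, replicate 2 included, had more Musk than all young sham libraries. The log2 fold change was 1.34 (SE 0.43, unadjusted p = 0.00657, adjusted p = 0.14) in the 11 libraries and 1.82 (SE 0.45, unadjusted p = 0.0012, adjusted p = 0.0739) in the 12. Neither passed the threshold. Without the filter on low counts the value was 1.34 and it did pass (adjusted p = 0.000166). In adult mice the ranges overlapped and the log2 fold change was 0.22 (SE 0.26, adjusted p = 0.78). The difference of these burn effects, tested as the interaction, was 1.12 (SE 0.50, unadjusted p = 0.0412, adjusted p = 0.431) and was not called.

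Lrp4, the agrin receptor (ENSMUSG00000027253.15, chr2:91457511-91513779, plus strand), lay between 6.30 and 13.3 CPM in the 11 libraries and at 5.84 CPM in young burn replicate 2. Dok7, the adaptor of Musk (ENSMUSG00000044716.12, chr5:35056766-35087839, plus strand), lay between 16.45 and 22.9 CPM, and at 18.3 CPM in replicate 2. The ages and treatments overlapped for both, and neither was called in any comparison. Dok7 averaged 17.5 ± 0.38 CPM (SD, n = 3) for young sham and 19.9 ± 2.77 CPM (SD, n = 3) for adult sham. Of the complex, Musk alone was called with age in the 11 libraries, and whether its difference exceeded those of Lrp4 and Dok7 was not tested.

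Rapsn (ENSMUSG00000002104.11, chr2:91035620-91045729, plus strand) had 23.0, 30.1 and 21.2 CPM in young sham and 32.8, 37.4 and 32.4 CPM in adult sham. The sham groups did not overlap, and the log2 fold change of -0.45 (SE 0.15, adjusted p = 0.0651) missed the threshold. It passed without young sham replicate 2 (-0.63, adjusted p = 0.0286) and without the low-count filter (-0.49, adjusted p = 0.0163). In burn, young replicates 1 and 3 had 27.25 and 28.3 CPM, replicate 2 had 10.8 CPM, and adult mice had 29.5, 31.85 and 41.0 CPM, a log2 fold change of -0.30 (SE 0.16, adjusted p = 0.209). Colq (ENSMUSG00000057606.14, chr14:31523082-31591343, minus strand) lay between 4.05 and 7.99 CPM in the 11 libraries, at 4.02 CPM in replicate 2, and was not called in any comparison. Every adult sham library (7.52 to 7.99 CPM) lay above every young sham (4.05 to 7.43 CPM) and adult burn library (5.8 to 6.95 CPM). The log2 fold changes against adult sham were -0.33 (SE 0.23, adjusted p = 0.367) for young sham and -0.27 (SE 0.22, adjusted p = 0.622) for adult burn. Colq shares 199 exon bases with Gm49387 on the same strand, which had 0 counts in every library.

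Of the 8 members tested, 3 were called with age in sham, 2 of them higher in young mice and 1 lower, where 11.8% of all 12651 genes were called (5.27% higher and 6.49% lower). With age in burn it was again 3 of 8, 2 higher and 1 lower in young mice, where 20.7% of all genes were called (11.2% higher and 9.54% lower). Both comparisons named Chrna1, Chrnb1 and Musk. Between adult burn and adult sham edgeR called 0 members, with 1 (Chrne) at an unadjusted p under 0.05, and 0.909% of all genes were called. Between young burn and young sham it called 0, with 2 (Musk and Chrnb1) at an unadjusted p under 0.05, against 0.664% of all genes, and in the interaction it called 0, with 1 (Musk), against 0.0949%. DESeq2 called 3, 3, 0, 0 and 0 members in the same order.

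In the fit of all 12, 1 member was called between the sham groups (Musk, background 3.76%) and 1 between the burn groups (Chrnb1, background 10.8%). No member was called for burn in adult mice (background 0.00806%), for burn in young mice (0.0645%) or in the interaction (0%), with 1, 2 and 1 at an unadjusted p under 0.05. Young burn replicate 2 is not in a sham group and enters that comparison through the shared spread, the scaling and the filter. Without young sham replicate 3 the sham groups differed in 1 called member, and without young burn replicate 1 the burn groups differed in 0, by edgeR over the 11 libraries less 1. The plot of fold changes sets both fits side by side.

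**Figure D2:**
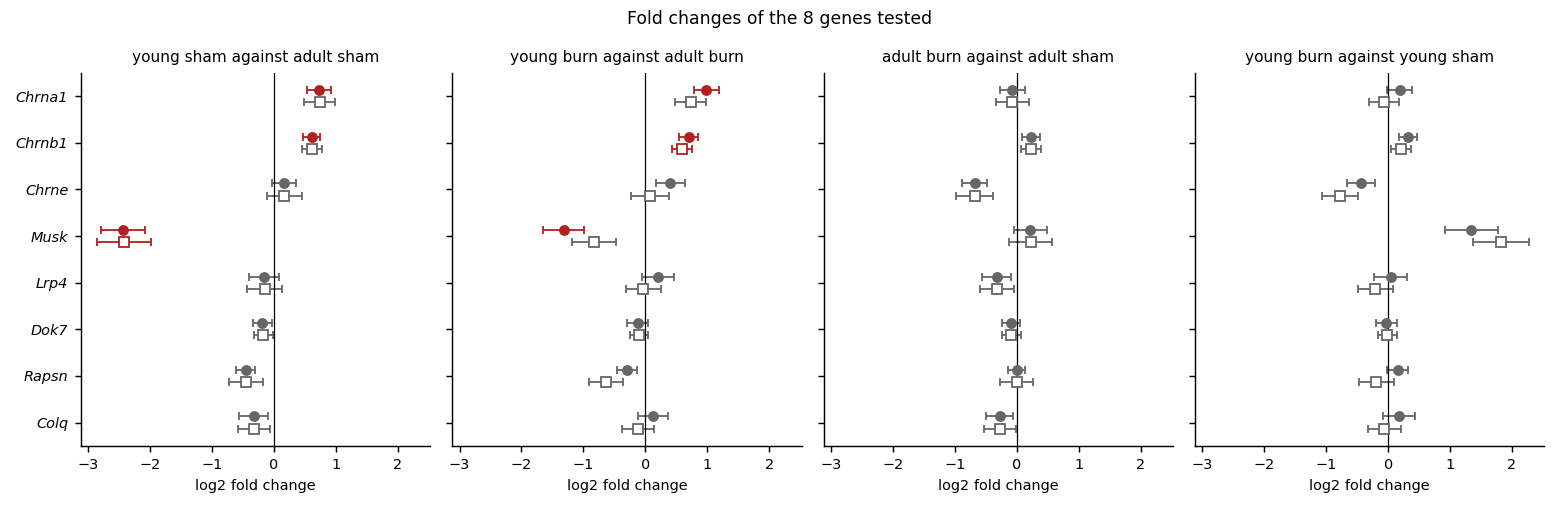
Log2 fold change (horizontal axes) of the 8 members tested in 4 comparisons, with the SE of the edgeR fit as bars. Filled circles are the fit of 11 libraries and open squares that of all 12, and red marks a gene called at an adjusted p under 0.05. Only the panels of young against adult hold red marks, with Musk at -2.44 and -1.32 on the lower side and Chrna1 and Chrnb1 on the higher side.

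Levels of different genes were compared per kilobase of annotated exon, as CPM per kb. In young sham, Chrnb1 led with 23.0 CPM per kb, followed by Rapsn (13.7), Chrne (8.32), Chrna1 (4.54), Dok7 (4.09), Colq (1.61), Lrp4 (0.963), Musk (0.938), Chrnd (0.206) and Chrng (0.0508). Chrna1 overlapped Dok7, Colq overlapped Lrp4, and Lrp4 overlapped Musk, while the other neighbours in this order did not overlap. In adult sham, Rapsn led with 19.0 CPM per kb, above Chrnb1 with 15.1, and Musk followed Chrne with 5.06 CPM per kb, overlapping both Chrne and Dok7. In adult burn Musk followed these genes directly at 5.91 CPM per kb, overlapping Chrne, and Rapsn overlapped Chrnb1. In young burn Chrnb1 led with 28.6 CPM per kb, Chrne, Chrna1 and Dok7 formed an overlapping run, and Musk came after them with 2.385 CPM per kb. Within libraries, Chrnb1 was above Chrne and Chrna1 in 12 of 12, and Chrne was above Chrna1 in 11 of 12. The order of Chrne and Chrna1 rests on the annotated exon lengths, 1.69 kb and 4.386 kb. In undivided counts Chrna1 was above Chrne in most libraries, such as 95 against 53 in young sham replicate 1. It was below in adult sham replicates 1 (62 against 70) and 2 (49 against 55). Chrnd and Chrng were lowest in each group.

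The fetal subunit was compared with the adult subunit within each library. Chrng (ENSMUSG00000026253.14, chr1:87204657-87212694, plus strand) had 0, 2 and 1 counts in young sham, 3, 3 and 4 in young burn, 0, 3 and 0 in adult sham, and 0 in each adult burn library. Chrne had 53, 79 and 58 counts in young sham, 69, 23 and 42 in young burn, 70, 55 and 54 in adult sham, and 44, 57 and 34 in adult burn. All 3 young burn libraries held Chrng reads, as did 2 of 3 young sham libraries and 1 of 3 adult sham libraries. Chrne was above Chrng per kilobase in every library.

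Of the reads on the 2 genes, Chrng made up 3 of 193 in young sham (1.55%, exact Clopper-Pearson 95% interval 0.322 to 4.48%) and 7 of 118 in young burn replicates 1 and 3 (5.93%, 2.42 to 11.8%). With replicate 2 the young burn share was 10 of 144 (6.94%, 3.38 to 12.4%). It was 3 of 182 in adult sham (1.65%, 0.341 to 4.74%) and 0 of 135 in adult burn, which allows a share of up to 2.22% when 3 counts are taken as the most that 0 allows. Reads were counted without molecular identifiers, so these intervals and limits cover counting error only. The young burn interval overlapped those of both sham groups, with and without replicate 2. The exact interval of adult burn, whose upper end is set by another rule than the 3-count limit above, was 0 to 2.7%, and it overlapped that of young burn replicates 1 and 3 but not that of all 3 young burn libraries. Per kilobase, adult burn had at least 111-fold more Chrne than Chrng, with the same 3 Chrng counts over the group.

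On the log2 scale, with 0.5 added to each count, the ratio of Chrng to Chrne per kilobase averaged -6.97 ± 0.937 (SD, n = 3) in young sham, -5.08 ± 0.758 (SD, n = 2) in young burn, -7.27 ± 1.72 (SD, n = 3) in adult sham and -7.78 ± 0.368 (SD, n = 3) in adult burn. Young mice exceeded adult mice by 1.5, averaged over sham and burn (exact permutation test within treatment, two-sided, p = 0.09, where the smallest possible p is 0.005). Burn exceeded sham by 0.693, averaged over the ages (exact permutation test within age, two-sided, p = 0.365). Neither passed. Because several libraries had 0 Chrng counts, the age value moved with the number added, to 2.88 (exact p = 0.055) with 0.1 and 0.595 (exact p = 0.155) with 2 in place of 0.5, and its size cannot be read from these counts. The burn value was 0.764 (exact p = 0.535) and 0.55 (exact p = 0.225). Over all 12 they were 1.67 (exact p = 0.055) and 0.864 (exact p = 0.275). Without adult sham replicate 2, the adult library with Chrng reads, they were 1.99 (exact p = 0.01, the smallest possible there) and 1.19 (exact p = 0.03), so whether either passed depended on that library. Taken singly, young burn was above adult burn by 2.7 and above young sham by 1.9, each with an exact permutation p = 0.1, the smallest that 2 against 3 libraries allow. From the pooled counts of a group the burn difference was -0.265, of opposite sign. For adult burn against adult sham the difference was -0.512 (exact permutation p = 0.9, where the smallest possible p is 0.1). The averaged burn value thus joins differences of opposite sign in the 2 ages, and neither could pass singly with so few libraries. Whether burn was followed by a switch from the adult to the fetal subunit cannot be decided from these libraries and their few Chrng reads.

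**Figure D3:**
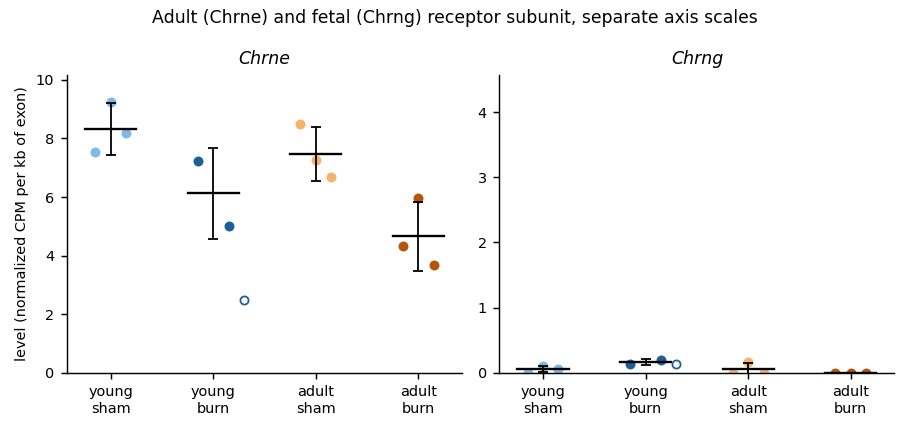
Level of Chrne (left) and Chrng (right) in CPM per kb of exon (vertical axes, with separate scales) in the 4 groups. Filled points are libraries, lines the mean and bars the SD (n = 3, or n = 2 for young burn), cut off at 0, and the open point is young burn replicate 2. The highest Chrng value is below 0.2 CPM per kb, whereas Chrne averages 4.66 to 8.32 CPM per kb over the groups.

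By Pearson's r of log2 CPM over the 11 libraries, given as a description without a test, the genes most like Musk were Dirc2 (r = 0.971), Ppm1b (0.969) and Spata5l1 (0.965). Those most like Chrna1 were Pgrmc1 (0.958), Zfp760 (0.951) and Plxdc1 (0.95), and those most like Chrne were Haus7 (0.933), Cpe (0.901) and Plxna4 (0.901). For Chrng they were Cyp4f13 (0.899), Mob3a (0.878) and Marcksl1 (0.865), on 13 Chrng reads in all. No other member was among the 3 genes most like any of these, and the libraries of an age share the age difference on which such values rest.

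The wider junction was described by lists of pathway genes outside the 10 members, of which 89 were tested. With age in sham 22 were called, 13 of them higher and 9 lower in young mice, against 11.8% of all genes (5.27% higher and 6.49% lower). With age in burn it was 34, 23 higher and 11 lower, against 20.7% of all genes (11.2% higher and 9.54% lower). With library size scaling the sham calls were 8 higher and 16 lower, and 7 genes were called between young burn and young sham. The fit of all 12, in which 88 were tested, gave 8 and 22, against 3.76% and 10.8% of all genes. These shares are the background for the counts of the single lists. The sham count became 14 without young sham replicate 3 or adult sham replicate 2, and the burn count became 21 without young burn replicate 1 and 20 without young burn replicate 3. Between adult burn and adult sham 1 was called (Trim63; background 0.909%), with 24 at an unadjusted p under 0.05 and 3 called by DESeq2. Between young burn and young sham edgeR called 0, with 20 at an unadjusted p under 0.05 and 2 called by DESeq2, and in the interaction it called 0, with 16 and 0.

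Of the 18 genes of agrin and Musk signalling, 3 were lower and 0 higher in young sham, namely Ptpn11 (-0.49), Dnaja3 (-0.40) and Crk (-0.39), given as log2 fold changes against adult sham. Ptpn11 and Crk encode signalling partners of the kinase and Dnaja3 a chaperone that binds it. Over all genes, 6.49% were called lower and 5.27% higher in young sham, and 9.54% lower and 11.2% higher in young burn. The median of the list was -0.18 in sham and -0.00397 in burn, against 0.000925 and 0.00759 over all genes. In young burn against adult burn, 4 were higher and 2 lower, led by Agrn (0.92, adjusted p = 0.0018), which encodes agrin, and the kinase Yes1 (0.88), with Ptpn11 at -0.55. The edgeR fit of all 12 called 0 of these genes in sham, with 4 at an unadjusted p under 0.05, and 3 in burn, all higher and Agrn among them. Agrn had 38.4 and 40.6 CPM in young burn replicates 1 and 3 and 33.2 CPM in replicate 2, all above the 22.4, 17.7 and 22.3 CPM of adult burn.

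Among 7 tested genes of the neuregulin and ETS pathway, which drives transcription in synaptic nuclei, 1 was called in each age comparison, a share near the 11.8% of all genes in sham and below the 20.7% in burn. This was the ETS factor Etv4, at 1.01 in sham (adjusted p = 0.0373) and 1.62 in burn (adjusted p = 0.00301). The sham value lost its call under 13 of 18 alternatives, while the burn value kept it under all 18. The fit of all 12 libraries called 0 genes of the list in sham, with 1 at an unadjusted p under 0.05, and 2 in burn. Gabpa, looked up because its product binds the N-box, was not called in either (-0.20 and -0.18).

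Of 15 genes through which activity controls receptor transcription, 1 was higher and 3 were lower in young mice in each age comparison. The higher gene was Myog, encoding myogenin, with 12.5, 20.4 and 24.1 CPM in young sham and 5.94, 5.57 and 6.06 CPM in adult sham, a log2 fold change of 1.69 (SE 0.29, adjusted p = 0.00246). In burn it had 43.7 and 33.7 CPM in young replicates 1 and 3, 31.95 CPM in replicate 2, and 8.29, 3.89 and 3.48 CPM in adult mice, a log2 fold change of 2.87 (SE 0.28, adjusted p = 3.38e-05). Young and adult libraries did not overlap, and both calls held under all 18 alternatives. Young burn lay above young sham by 1.03 (SE 0.25, adjusted p = 0.0743), which missed the threshold. Myod1, encoding MyoD, was lower in young sham (-1.05, adjusted p = 0.016), and Camk2b was lower in both comparisons (-0.62 and -0.54). In burn the relative Myf6 was lower (-0.77). The sham call of Myod1 was lost without young sham replicate 3 or adult sham replicate 1, with a highest adjusted p of 0.0836. Over all 12 libraries 2 genes of the list were called in each comparison.

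The markers of denervation did not move in 1 direction. Of 10 tested, 2 were higher and 1 lower in young sham than in adult sham, and 4 were higher and 3 lower in young burn than in adult burn. The neural cell adhesion molecule Ncam1 was higher in both (0.839 and 1.098), Gadd45a in sham (0.82), and the embryonic myosin Myh3 in burn (1.91). The atrophy ligase Fbxo32 was lower in young mice in both (-1.91 and -2.54), and Trim63, encoding another such ligase, in burn (-1.86). Over all 12 libraries edgeR called 0 of the markers in sham, with 2 at an unadjusted p under 0.05, and 3 in burn with Trim63 among them. Ncam1, Fbxo32, Gadd45a and Myh3 thus lost their calls. Between adult burn and adult sham, DESeq2 called 3 of the pathway genes, and edgeR called Trim63 alone. It had 246, 339.9 and 384 CPM in adult sham and 631, 922 and 595 CPM in adult burn, a log2 fold change of 1.15 (SE 0.22, adjusted p = 0.0259). The groups did not overlap, and the call was lost with all 12 libraries (adjusted p = 0.569) and without adult sham replicate 1 (0.104), adult sham replicate 2 (0.0635), adult burn replicate 2 (0.123) or adult burn replicate 3 (0.051), and with the replicate block (0.0632).

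The called genes of the synaptic basal lamina were all higher in young mice. Of 17 tested, 4 were higher and 0 lower in young sham, and 10 were higher and 0 lower in young burn, with medians of 0.38 and 0.57 against 0.000925 and 0.00759 over all genes. The type IV collagen chains led, with Col4a5 at 1.44 and 1.66, Col4a1 at 0.99 and 1.34, and Col4a2 at 0.64 and 1.11 in sham and burn. These chains are laid down along the whole fibre and around vessels, not at the synapse alone. The fit of all 12 called 3 and 8 of 16 tested genes, again all higher in young mice, and the burn count became 6 without young burn replicate 3. Ache, looked up as the enzyme that Colq anchors, was called in burn (0.67, adjusted p = 0.0108) and not in sham (0.45, adjusted p = 0.0658), and in burn it was not called with all 12.

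Of 15 scaffold and channel genes, 4 were higher and 2 lower in young sham, and 3 were higher and 3 lower in young burn. The muscle sodium channel Scn4a (-0.92 and -0.67) and Syne1, which anchors nuclei (-0.82 and -1.09), were lower in both, and the syntrophin Sntb1 was higher in both (0.74 and 1.19), with Sntb2 higher in burn (0.84). The fit of all 12 called 2 and 4, Sntb1 not among them. Of the 11 other nicotinic subunits, 8 had a count and 2 were tested. Chrna9 was higher in young sham (3.18, SE 0.66, adjusted p = 0.00708), with 17, 8 and 20 counts in young sham and 1, 2 and 2 in adult sham. Of the 5 genes that glycosylate the receptor, edgeR and DESeq2 called 0 in either age comparison, with 1 at an unadjusted p under 0.05 in each. The plot of named pathway genes shows these differences together.

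**Figure D4:**
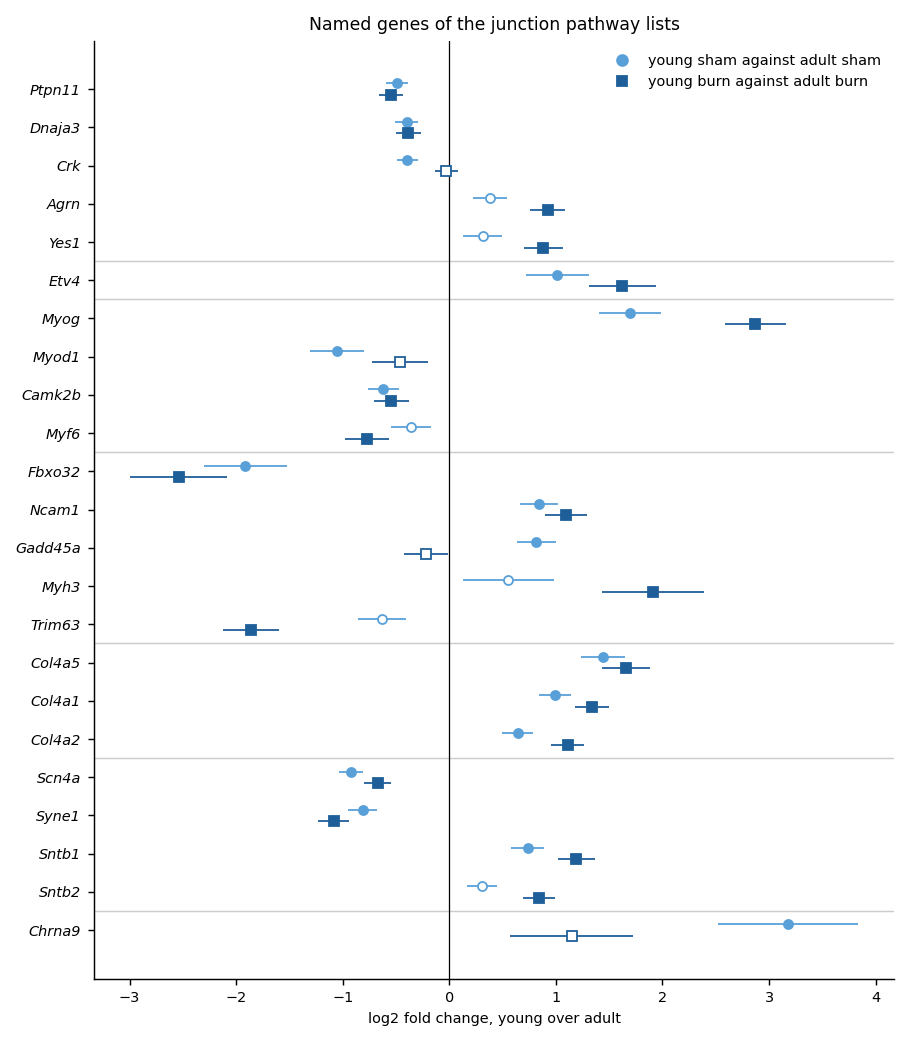
Log2 fold change of young over adult (horizontal axis) for the named genes of the pathway lists, separated by grey lines, with the SE of the edgeR fit of 11 libraries as bars. Circles compare the sham groups and squares the burn groups, and filled symbols mark genes called at an adjusted p under 0.05. Myog reaches 2.87 on the higher side and Fbxo32 -2.54 on the lower side, both between the burn groups.

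Cell type markers were read beside these age differences. The shares called over all genes are the background for the marker counts. With age these were 11.8% in sham (5.27% higher and 6.49% lower in young mice) and 20.7% in burn (11.2% and 9.54%). With all 12 libraries they were 3.76% and 10.8%. With burn they were 0.909% in adult and 0.664% in young mice. The 8 skeletal fibre markers summed to 90980 to 121800 CPM in young sham and 74050 to 85790 CPM in adult sham. In burn they summed to 86220 and 84610 CPM in young replicates 1 and 3 and 68690 CPM in replicate 2. Adult burn had 80490 to 89780 CPM. Of these markers 2 were called higher in young sham (Mylpf and Casq1), and 2 higher and 1 lower (Ckm) in young burn. With all 12 libraries 1 was called in sham and 0 in burn. The 5 fibroblast markers summed to 5530 to 7073 CPM in young and 2354 to 3185 CPM in adult libraries, with 2 called higher in young sham and 3 in young burn. The 8 Schwann cell markers summed to 188 to 346 CPM in the young libraries of the 11, 148 CPM in young burn replicate 2, and 117 to 161 CPM in adult libraries, with 3 of 7 tested called higher in sham and 4 in burn. The motor neuron markers Slc18a3 and Mnx1 were at 0 counts in every library, and Chat had at most 2. The 4 satellite cell markers summed to 59.2 to 80.6 CPM in young sham and 32.3 to 42.0 CPM in adult sham. In burn they summed to 38.2 and 57.2 CPM in young replicates 1 and 3, 49.7 CPM in replicate 2, and 29.3 to 33.4 CPM in adult mice. Of them 2 were called higher in young sham and 1 in young burn, also with all 12. The 6 slow fibre markers overlapped between the ages in sham. In burn they summed to 1139 and 870 CPM in young replicates 1 and 3 and 343 CPM in replicate 2. Adult burn had 472 to 536 CPM, and 2 were called higher in young burn, but 0 with all 12. The 5 neutrophil markers summed to 1.78 to 4.92 CPM in sham, 6.72 to 14.6 CPM in the burn libraries of the 11 and 27.4 CPM in young burn replicate 2. Between adult burn and adult sham, the slow fibre marker Myl2 (-0.95, adjusted p = 0.0457) and the endothelial marker Kdr (-0.70, adjusted p = 0.0374) were called lower. Myl2 lost this call under 11 and Kdr under 8 of 18 alternatives, both with all 12 libraries (adjusted p = 0.653 and 0.544). Between young burn and young sham, the endothelial Vwf (0.906, adjusted p = 0.022) and the neutrophil S100a9 (2.43, adjusted p = 0.0447) were called higher. The tendon marker Chad (-2.09, adjusted p = 0.044) was called lower, and all of these calls were lost with all 12 libraries. The 5 tendon markers summed to 257 to 298 CPM in young sham, 72.9 and 154 CPM in young burn replicates 1 and 3, and 102 CPM in replicate 2. Adult sham had 101 to 231 CPM and adult burn 92.4 to 137 CPM. Of them Tnmd was called higher in young sham than in adult sham (1.28, adjusted p = 0.0399), but not with all 12. In young burn against adult burn, 2 of 5 endothelial markers, Cdh5 (0.743) and Tek (0.452), and 2 of 5 macrophage markers, Adgre1 (1.06) and Mrc1 (0.691), were called higher, beside the basal lamina genes. Of these Tek was not called with all 12 libraries, and each lost its call without young burn replicate 1 (Cdh5 and Tek) or replicate 3 (Tek, Adgre1 and Mrc1). The part of these cell types in the differences of Chrna1, Chrnb1, Musk, Trim63 and the basal lamina genes was not tested.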

How the data were processed

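Poly-A RNA libraries of 12 gastrocnemius muscles were used, 3 per group, and the small RNA libraries were not used here. The deposited values are raw counts per gene. The authors mapped the reads with STAR (version 2.7.5c in the submitters' processing notes) to GRCm38 and counted them with its GeneCounts option on Gencode M25. Which strand was counted was not given in the sources used here. Identifiers were matched to Gencode M21 without their versions, and 260 of 55401 had no entry. Young burn replicate 2 was left out of the main fit because the study leaves 1 young burn animal out as an outlier and its heat map shows replicates 1 and 3, which is an inference. Its CPM used the scaling of all 12 libraries.

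Counts were scaled by TMM, filtered with filterByExpr (minimum count 10, minimum total 15), which kept 12651 genes in 11 libraries and 12408 in 12, and tested in edgeR 4.0.16 (R 4.3.3) with a mean per group, two-sided. DESeq2 1.42.0, other scalings, no filter, a replicate block, fits of 2 groups and leaving out each library were alternatives, and the fit was tested on simulated data. Figures used matplotlib 3.10.9. Total counts of 4392605 to 5688512 limit the precision for genes with few counts. The study's RNA quality report gave no integrity score for any muscle. Its ratio of large to small ribosomal RNA was in no young sham muscle above that of any adult sham muscle, and the burn groups overlapped. The part of RNA quality in the age differences was not tested. The members and lists were chosen with earlier results of these data known. By rule, every member was named, and up to 3 called genes of largest change per list and comparison. Promoter stretches came from RefSeq (GRCm38.p6) for Chrna1, Chrnb1, Chrne, Chrng, Musk and Dok7, and not for Chrnd, Rapsn, Lrp4 and Colq.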

Additional observations from a re-analysis of the deposited data

Results flagged for a closer look

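Young burn replicate 2, which is outside the main comparisons, held 4 members above every young sham library. They were Musk at 19.9 CPM, Dok7 at 18.26 CPM, Chrnd at 0.913 CPM and Chrng at 0.5478 CPM, of which Chrnd rests on 5 counts and Chrng on 3. Below every young sham library, the same library held Chrna1 (12.4 CPM), Chrne (4.2), Lrp4 (5.84), Rapsn (10.8) and Colq (4.02). The cause was not tested.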

How the results depend on the processing

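With all 12 libraries the members called dropped from 3 to 1 between the sham groups and from 3 to 1 between the burn groups. Without the low-count filter 1 member (Musk) was called between young burn and young sham, where the main count was 0. Leaving out 1 library at a time gave 1 to 4 members between the sham groups, 0 to 3 between the burn groups, and 0 in the burn comparisons and the interaction. Leaving out young burn replicate 1 or 3 left that group with 1 library, which was assumed to vary like the other groups. The ratio of Chrng to Chrne ranged from 1.2 to 1.99 for young minus adult and from 0.399 to 1.19 for burn minus sham when 1 library was left out, and from pooled counts the latter was -0.265. With 0.1 or 2 added to each count in place of 0.5 the former was 2.88 or 0.595 and the latter 0.764 or 0.55, so that the former moved further with the number added than with any library left out. Of the members' fold changes that exceeded their standard error, none changed sign under any alternative run, and 357 of 375 values kept their side of the threshold. The replicate block gave 3, 3, 0, 0 and 0 members called, so it changed no call among the members. Trim63 lost its call between adult burn and adult sham under the block (adjusted p = 0.0632), and over all genes it called 1184 instead of 1488 between the sham groups and 7 instead of 84 between young burn and young sham. Libraries of the same number did not deviate together (r from -0.17 to 0.13, over 0.1 in 2 of 15 combinations, against -0.18 to 0.2 for different numbers), so the numbers were not taken to pair mice. With library size scaling, which was chosen after seeing the data, the median of all genes moved to -0.133 between the sham groups and 0.165 between young burn and young sham, and the share of calls that were higher moved from 44.8% to 19.7% and from 69.0% to 95.8%. Under it Chrna1 lost its sham call (0.58, adjusted p = 0.0514), and Rapsn gained one (-0.58, adjusted p = 0.0323). The cause of these changes was not tested. Chrng and Chrnd were limited by depth, with at most 4 and 8 counts per library.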
